A study of Mus musculus with 1119 samples.

Results

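In resting mouse hair follicles, 29 of 68 hair germ cells carried Postn, the gene of the matricellular protein periostin, and 39 did not. These cells are single hair germ cells of 1 plate, sorted from back skin at postnatal day 21 (P21) and named telogen hair germ cells in the authors' annotation. Of 71 such cells, the 3 with under 2000 genes at a TPM (a transcript's abundance relative to all transcripts of the cell) of 1 or more were left out. Germ cells with Postn were chosen by a Postn TPM of 1 or more, and germ cells without Postn by a TPM below 1. The series holds 1119 cells in all, 398 of them in the P21 to P27 table that was used for every comparison here.

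All groups came from Lgr5-eGFPiresCreER;R26-tdTomato mice of mixed sex, in which the Lgr5 locus drives GFP and an inducible Cre. The germ cells were set against 39 P21 bulge cells from another plate, and the same Postn split was made in 68 germ cells of P23-P24 mice. Cells were sorted with GFP, tdTomato, integrin α6, integrin b1, CD34 and P-cadherin, and sequenced with the full-length Smart-seq2 method. No label names an animal, so each group counted as 1 sample. No difference was tested, and every interval given covers the counting of cells only. Bulge and germ cells differ in plate as well as in type, and these cannot be told apart.

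The bulge is the niche of quiescent, CD34-bearing stem cells at the base of the resting follicle's permanent part, and the hair germ is the small cluster of progenitors between the bulge and the dermal papilla. The germ is the first part to respond to dermal papilla signals at the start of growth, with WNT, FGF and hedgehog responses, while bulge cells stay under BMP and WNT inhibitors. Periostin is secreted into the extracellular matrix and binds integrins. The question posed by the split is whether some resting germ cells carry the wider set of bulge genes.

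Postn itself was used to choose the cells, and its levels are a description. The 29 cells with Postn make up 42.6% of the kept germ cells (exact binomial 95% interval 30.7% to 55.2%). Their Postn TPM had a lowest value of 4.89, a median of 90.8 and a highest value of 507, and all 39 cells without Postn were listed at 0. No cell lay between 0 and 4.89, so the choice of threshold moved no cell until it passed that value. Every one of the 39 bulge cells carried Postn, from 33.2 through a median of 299.1 to 1099 TPM. Postn was present in 37 of 68 P23-P24 germ cells (54.4%), 15 of 16 P25-P27 germ cells, 53.6% of P25-P27 matrix cells and 16.4% of P30 hair bulb cells. The P30 table was normalised on its own, so that last level is not on a shared scale.

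Both germ groups were keratinocytes by their markers, with 1 exception. The epithelial list of 12 genes had a median of 12 members detected in cells with Postn, in cells without Postn and in bulge cells, where detected means a TPM of 1 or more. In 1 cell without Postn none of the 12 was detected, while 11 of 12 fibroblast and dermal papilla genes were, with Col1a1 at 2978 TPM and Vim at 950 TPM. That cell goes against its label, and the other 67 germ cells had at most 7 and a median of 2 of those genes. Leaving it out gave a median difference of 1.21 in place of 1.27 for the bulge-selected genes described below, and -1.74 in place of -1.67 for the hair germ list. For a bulge list of 24 genes, also described below, the median was 0.66 in place of 0.83. Summed over their lists, the highest cell with Postn and the highest cell without Postn had 0.82 and 1.73 TPM of endothelial, 0.24 and 18.01 TPM of immune, 1.39 and 37.3 TPM of smooth muscle and 60.4 and 61.01 TPM of Merkel and nerve genes. Of 8 melanocyte genes, 5, Dct, Tyrp1, Mlana, Sox10 and Kit, were at 0 in every cell with Postn, and the others were Tyr (at most 9.34 TPM), Pmel (at most 3.98 TPM) and Mitf, a transcription factor that bulge cells carried as well and that differed by 1.61 between the germ groups. Summed fibroblast genes ran from 4.75 to 385.8 TPM in cells with Postn, mostly Fbln1, and from 47.4 to 10957 TPM in cells without Postn. The median number of detected genes was 6008 in cells with Postn, 6507 in cells without Postn and 5572 in bulge cells. Median spike-in shares were 12.2%, 10.4% and 14.4% of TPM in the same order. Ribosomal RNA rows took medians of 53.5%, 52.7% and 53.4%. Genes other than spike-in, ribosomal RNA and mitochondrial rows took 33.5%, 34.1% and 30.5%. At P23-P24 the ribosomal RNA medians were 63.1% in cells with Postn and 63.8% in cells without Postn. By plate row, none of the 9 cells of row A carried Postn, against 2 to 7 cells in each of the other rows. The bulge-selected median was 1.26 without row A. The part that plate position has in the split was not tested.

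Differences are given as the mean log2(TPM + 1) of germ cells with Postn minus that of germ cells without Postn, and 1 unit is called a step. Among 9353 genes detected in at least 30% of the cells of either group, 3.58% were at least 1 step higher in cells with Postn and 677 (7.24%) at least 1 step lower, with a median of -0.13. The genes that stood highest were Dmkn (dermokine, a secreted epithelial protein), Sbsn (suprabasin, likewise secreted), Krt80 (an epithelial keratin), Aqp3 (a water and glycerol channel), Fst (follistatin, which binds activins and BMPs), Fcgbp, Thsd1, Anxa8 (an annexin), Sox9 (a transcription factor of bulge stem cells), Capns2, Ltbp2 (a matrix protein that binds microfibrils) and Palld (an actin-binding protein).

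Dmkn had 0, 158.01 and 1598 TPM as its lowest, median and highest value in cells with Postn, and 0, 0 and 159.5 TPM in cells without Postn, while bulge cells had 303.6, 869 and 1863 TPM. It was detected in 23 of 29 cells with Postn and 10 of 39 cells without Postn, a difference of 4.70. The median cell with Postn was near the highest cell without Postn, but 6 cells with Postn lacked Dmkn, so the groups overlap. Sbsn ran from 0 through 101.04 to 457 TPM in cells with Postn and from 0 through 0 to 173.8 TPM in cells without Postn, a difference of 4.21. Krt80 was detected in 24 of 29 cells with Postn and 9 of 39 cells without Postn, with medians of 61 and 0 TPM and a difference of 3.95. Dmkn and Sbsn were both detected in 22 of 29 cells with Postn, in 7 of 39 cells without Postn and in 38 of 39 bulge cells. The 2 genes are neighbours on chromosome 7, 7.70 kb apart in the GENCODE annotation of GRCm38.

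**Figure D1:**
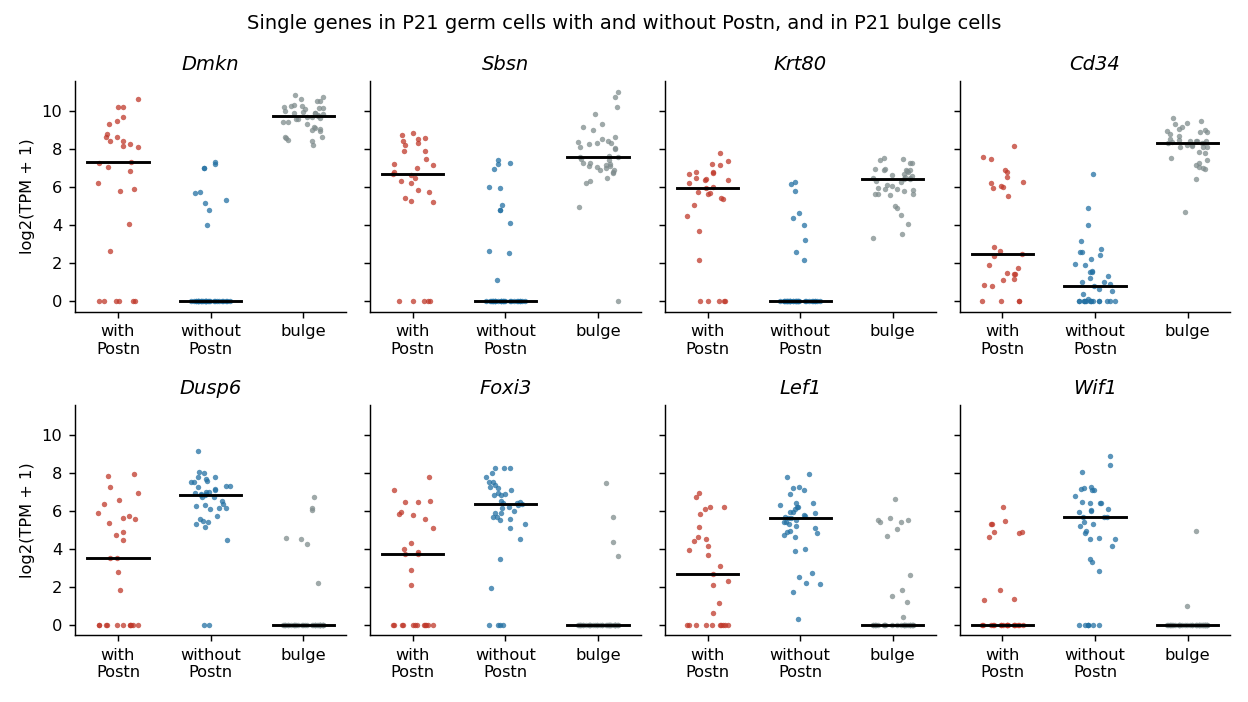
Each point is 1 cell and its height is log2(TPM + 1) of the gene named above the panel, for P21 germ cells with Postn, P21 germ cells without Postn and P21 bulge cells, with black lines at the medians. Dmkn, Sbsn and Krt80 have medians of 0 TPM in germ cells without Postn and of 158.01, 101.04 and 61 TPM in germ cells with Postn, while Dusp6 and Foxi3 stand higher in germ cells without Postn.

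The promoters of these neighbours are shown because they have the largest differences, beside that of Postn, which chose the cells. Each runs from 250 bases before to 50 bases after a RefSeq transcription start on GRCm38.p6, on the plus strand. Capitals mark matches to 6 searched motifs, on either strand: a TATA box (TATAAA), AP-1 (TGANTCA), SOX (ACAATG), ETS (CCGGAAG), TCF/LEF (CTTTGAT) and TEAD (GGAATG), of which no match overlaps another here.
Postn, chr3:54360857-54361156: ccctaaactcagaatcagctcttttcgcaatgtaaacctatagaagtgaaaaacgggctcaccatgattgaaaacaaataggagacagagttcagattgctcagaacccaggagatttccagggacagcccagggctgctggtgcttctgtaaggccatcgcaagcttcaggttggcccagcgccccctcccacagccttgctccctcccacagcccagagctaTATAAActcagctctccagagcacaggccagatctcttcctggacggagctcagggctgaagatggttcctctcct
Dmkn, chr7:30763506-30763805: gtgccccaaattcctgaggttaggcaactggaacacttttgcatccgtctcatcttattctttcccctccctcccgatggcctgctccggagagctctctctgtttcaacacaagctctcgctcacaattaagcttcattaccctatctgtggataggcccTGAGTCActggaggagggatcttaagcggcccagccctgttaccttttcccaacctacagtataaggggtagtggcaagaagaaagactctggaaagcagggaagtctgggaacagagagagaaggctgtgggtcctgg
Sbsn, chr7:30751221-30751520: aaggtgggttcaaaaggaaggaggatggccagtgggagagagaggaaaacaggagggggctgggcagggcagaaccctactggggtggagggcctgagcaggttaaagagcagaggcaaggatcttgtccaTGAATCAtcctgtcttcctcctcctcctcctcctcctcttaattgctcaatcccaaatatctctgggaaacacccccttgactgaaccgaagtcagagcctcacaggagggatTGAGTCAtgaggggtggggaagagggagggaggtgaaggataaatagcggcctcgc
The Dmkn window shown held 1 AP-1 match, 89 bases before the start, and Sbsn held 2, the nearer of them 6 bases before it. The Postn window shown held a TATA box 26 bases before the start. The RefSeq table gives other starts too: a second Postn window, chr3:54359017-54359316, held no match to the 6 motifs, and the other 2 Dmkn windows each held 1 AP-1 match, 91 and 82 bases before their starts. An AP-1 match was present in the promoters of 8.97% of the 27025 genes in the RefSeq table, of 14 of the 94 bulge-selected genes found there (14.9%), and of 3 of the 9 found among the 12 genes with the highest differences (Dmkn, Palld and Sbsn). The other 5 motifs were less frequent in the bulge-selected genes than in all genes of that table. Their shares were 13.8% against 15.7% for the TATA box, 5.32% against 14.3% for SOX and 5.32% against 9.93% for ETS. For TCF/LEF they were 3.19% against 4.29%, and for TEAD 8.51% against 16.6%. A match of letters is a description and no measured binding.

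To ask about the wider bulge programme, a gene set was taken from cells that play no part in the split. It holds the genes that were detected in at least 50% of P21 bulge cells and averaged at least 2 steps higher there than in P23-P24 germ cells and than in P25-P27 matrix cells, with Postn left out. The bulge cells differ from those groups in age and plate as well as in type, and for the choice of this set these cannot be told apart. The bulge-selected genes had a median difference of 1.27 between P21 germ cells with and without Postn. In cells with Postn, 76 of the genes (60.8%) were at least 1 step higher, 43 were higher by less than that, 6 were lower by less than 1 step, and 0 were at least 1 step lower. Among all genes the shares past 1 step were 3.58% higher and 7.24% lower. The filter on low values would have removed 8 of the set, which were kept in these counts. The smallest differences belonged to Snord17 (-0.77), Rps27rt (-0.73), Trp53i11 (-0.63) and Kif21b (-0.48), so the set was not uniformly higher.

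Several known bulge genes were in the set. Nfatc1, a calcineurin-dependent transcription factor that keeps bulge cells quiescent, had medians of 50.8 TPM in cells with Postn and 4.86 TPM in cells without Postn, a difference of 2.46. Krt24, a bulge keratin, was detected in 12 of 29 cells with Postn (41.4%, exact interval 23.5% to 61.1%) and in 0 of 39 cells without Postn (upper bound 9.03%). Krt6a, a keratin of the inner bulge layer, was detected in 9 of 29 cells with Postn and 0 of 39 cells without Postn. Bulge cells carried these keratins in 36 and 33 of 39 cells. Krt24 and Krt6a thus marked some of the cells with Postn, while 14 of the 29 had neither. Krt15, a basal keratin used as a bulge marker, was abundant in every cell with Postn (346.8, 2383 and 7588.5 TPM) and had 0, 1775 and 4245 TPM in cells without Postn, a difference of 0.91 with wide overlap.

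Counted cell by cell, 47.2%, 70.4% and 94.4% (lowest, median, highest) of the bulge-selected genes were detected in germ cells with Postn, 37.6%, 51.2% and 75.2% in germ cells without Postn, and 71.2%, 92% and 98.4% in bulge cells. Of the 29 cells with Postn, 14 reached the lowest bulge cell, against 1 of 39 cells without Postn. Such a line is a range and not a type: 6 cells with Postn and 4 cells without Postn lay within 5 genes of it, and the second lowest bulge cell had 79.2%. Against bulge cells, the median difference of the set was -1.35 for cells with Postn and -2.68 for cells without Postn. Of the genes, 64.8% in cells with Postn and 89.6% in cells without Postn were at least 1 step below bulge cells. Cells with Postn as a group therefore stood between the cells without Postn and the bulge cells. The number of bulge-selected genes was nearly unrelated to the number of all genes detected, with a Pearson r of -0.03 and a Spearman rho of -0.13 over the 68 cells of 1 plate.

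**Figure D2:**
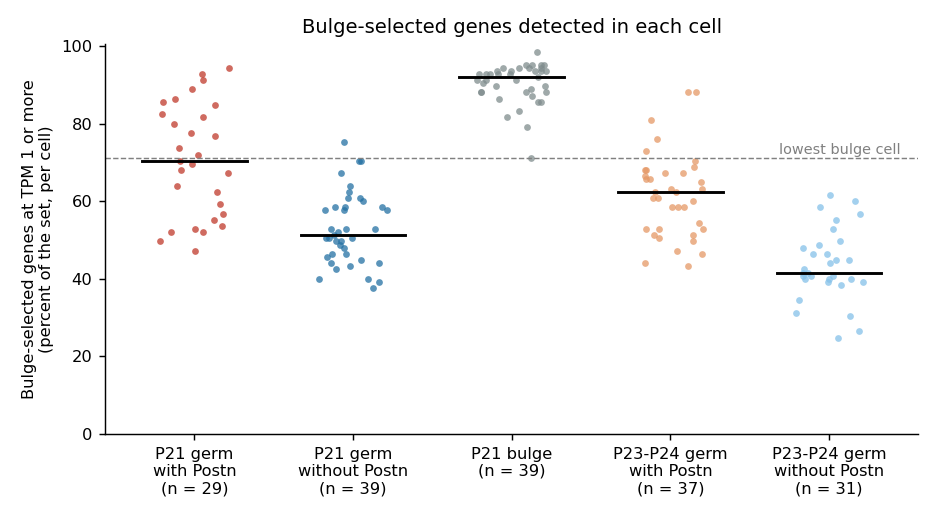
The vertical axis gives, for each cell, the percent of the bulge-selected set that reached a TPM of 1, in P21 germ cells with Postn (n = 29), P21 germ cells without Postn (n = 39), P21 bulge cells (n = 39) and the same split at P23-P24 (n = 37 and 31). Black lines are medians (70.4%, 51.2%, 92%, 62.4% and 41.6%) and the dashed line is the lowest bulge cell at 71.2%. The set was chosen as higher in bulge cells than in P23-P24 germ cells, so the heights of those groups are partly set by the choice.

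Cells with Postn varied widely among themselves. The 14 cells in the bulge range had a median of 8.50 of the 17 genes of a hair germ list, and the other 15 had a median of 11, set beside 12 in cells without Postn and 6 in bulge cells. Within the 29 cells, the Postn level and the number of bulge-selected genes had a Pearson r of 0.61 and a Spearman rho of 0.61, and the Postn level and the number of germ genes had an r of -0.57 and a rho of -0.57. The Postn level and the number of bulge-selected genes had an r of 0.64 and a rho of 0.67 in the 37 P23-P24 germ cells with Postn, and an r of 0.47 and a rho of 0.42 in the 39 bulge cells, both of the same sign. These describe cells of 1 plate each, on a common scale, and use the Postn level that chose the germ cells. Mixed cells were present: Dmkn and Foxi3, a forkhead factor of the hair germ, were detected together in 13 of 29 cells with Postn, 9 of 39 cells without Postn and 4 of 39 bulge cells. A further 10 cells with Postn had Dmkn and no Foxi3, against 1 cell without Postn.

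**Figure D3:**
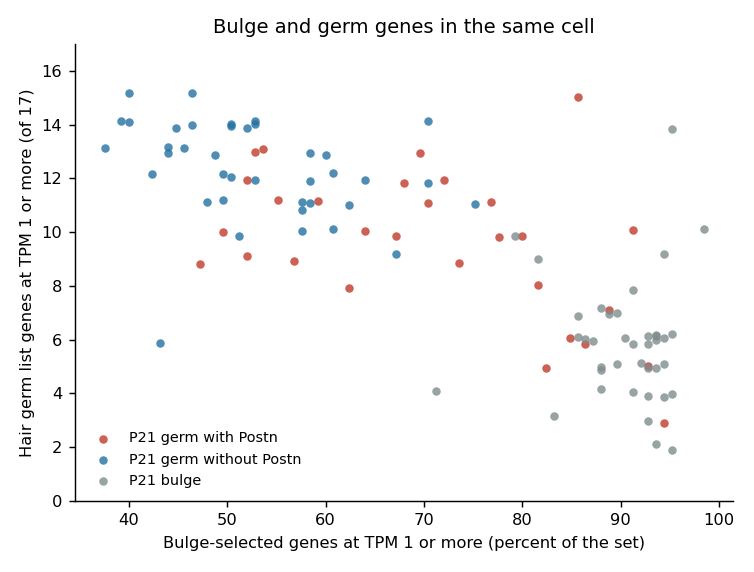
Each point is 1 P21 cell, placed by the percent of bulge-selected genes and the number of hair germ list genes (of 17) at a TPM of 1 or more, with a small vertical jitter. Germ cells with Postn spread from 47.2% to 94.4% of the bulge-selected genes, across the span between germ cells without Postn and bulge cells. The high share in bulge cells largely follows from the choice of the set.

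Cd34, the surface marker of bulge cells, was among the sorting antigens, and its transcript differed between the germ groups. It had 0, 4.53 and 291.9 TPM in cells with Postn and 0, 0.75 and 103.05 TPM in cells without Postn, while bulge cells had 24.6, 324.15 and 787 TPM. The cell without Postn at 103.05 TPM was the 1 that carried fibroblast genes, and the next highest had 28.6 TPM. Cd34 was detected in 23 of 29 cells with Postn (79.3%), 18 of 39 cells without Postn (46.2%) and 39 of 39 bulge cells. Among the 14 cells with Postn in the bulge range the Cd34 median was 74.2 TPM, against 1.74 TPM in the other 15. When germ cells at or above the lowest bulge cell's Cd34 level were left out, 17 cells with Postn and 37 without remained. The cell with fibroblast genes was among those left out. The bulge-selected median was then 0.58, with 35 genes (28%) at least 1 step higher, beside 5.32% of all genes. With every cell that had Cd34 detected left out, 6 cells with Postn and 21 without remained, with a median of 0.48 and 37 genes (29.6%) at least 1 step higher, beside 19.2% of all genes. The median of all genes was then 0.25, in place of -0.13 with no cell left out for Cd34. Some single genes kept more of their difference: without cells at the bulge Cd34 level, Dmkn had 3.33, Sbsn 3.29, Krt80 3.11 and Sox9 2.55, while Fst had 1.56 in place of 3.16. How far the sort admitted bulge cells to the germ plate was not tested.

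Other sorting genes differed by less than 1 step. Lgr5, a WNT-potentiating receptor of follicle stem cells that is part of the mouse allele, had medians of 243.2 TPM in cells with Postn and 99.4 TPM in cells without Postn, a difference of 0.71. Cdh3, the gene of P-cadherin, had medians of 52.1 and 43.1 TPM in the same order, a difference of 0.15. Itga6 and Itgb1, the integrin subunits of the sort, differed by 0.26 and 0.17.

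Genes of the hair germ went the other way. In the 17-gene hair germ list, the median difference was -1.67, with 11 genes at least 1 step lower in cells with Postn and 0 at least 1 step higher, against 7.24% and 3.58% of all genes. Foxi3 had 0, 12.2 and 216.2 TPM in cells with Postn and 0, 81 and 305.3 TPM in cells without Postn, a difference of -2.72. Lef1, a transcription factor that carries WNT signals into the nucleus, had medians of 5.51 TPM in cells with Postn and 48.9 TPM in cells without Postn, a difference of -2.45. Abi3bp (-2.43) and Adamts1 (-2.59), an extracellular matrix protein and a matrix protease, stood lower as well. Both germ groups overlapped for each of these genes, since some cells with Postn had high levels. Germ genes that did not share this were Cdh3 (0.15), Bambi, a decoy receptor for TGF-beta family ligands (0.27), and Lgr5 (0.71). Shh and Edar were near 0 in both groups. A reversed set of 28 genes, at least 2 steps lower in bulge cells than in P23-P24 germ and P25-P27 matrix cells, was added after the values had been seen. It had a median of -1.07, with 14 genes at least 1 step lower and 0 at least 1 step higher. Without cells at the bulge Cd34 level, the hair germ list had a median of -0.80 and the reversed set -0.27. With every cell that had Cd34 detected left out, these were -0.17 and 0.10, so the reversed set changed sign. All genes had a median of 0.25 in that setting.

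**Figure D4:**
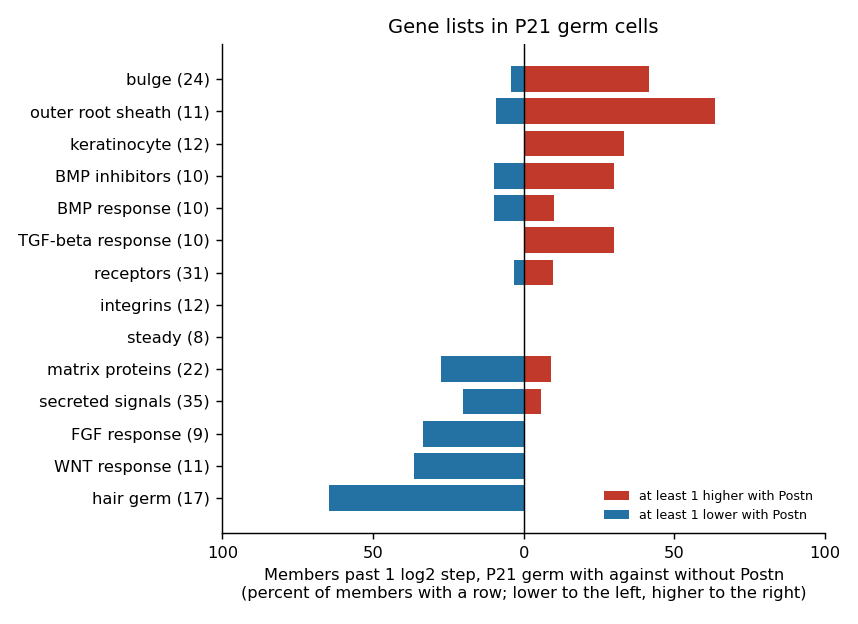
Bars give, for the gene lists named on the axis (number of members in parentheses), the percent of members at least 1 step higher (to the right) or lower (to the left) in P21 germ cells with Postn than in those without Postn. To the right, the outer root sheath and bulge lists have 7 of 11 and 10 of 24 members, and to the left the hair germ list has 11 of 17, beside 3.58% of all genes higher and 7.24% lower.

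Some genes that read out the signals of germ activation were lower in cells with Postn. Of 9 genes of the FGF response, 0 were above 0 and 3 were at least 1 step lower, beside 7.24% of all genes, with a median of -0.65: Dusp6, a phosphatase of the ERK kinases, Etv4, an ETS transcription factor (-2.53), and Spry1, a feedback inhibitor (-1.14). Dusp6 had 0, 10.6 and 250 TPM in cells with Postn and 0, 113.6 and 563 TPM in cells without Postn, a difference of -3.06. It was detected in 18 of 29 cells with Postn and 37 of 39 cells without Postn, so its absence was more frequent with Postn while the upper ranges overlapped. Among hedgehog genes, Ptch1, a receptor and target, differed by -1.50 and Gli1, a transcription factor and target, by -1.83, while Hhip was at 0 in both groups. In the WNT response, with a median of -0.51, 4 of 11 genes were at least 1 step lower and 0 higher, beside 7.24% and 3.58% of all genes: Lef1, Tcf7, its relative (-2.22), Notum, a secreted WNT-inactivating enzyme (-2.25), and Axin2, a feedback target (-1.02).

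Ligands and their inhibitors were mixed. Among 35 secreted signals, 2 (5.71%) were at least 1 step higher and 7 (20%) at least 1 step lower, with a median of -0.30. The shares of all genes were 3.58% and 7.24%, so the share higher was near that of all genes. Lower ones included Wnt10b, a WNT ligand (-2.09), Bmp7, a BMP ligand (-1.99), and Kitl, the stem cell factor that acts on melanocytes (-1.96). With every cell that had Cd34 detected left out, Wnt10b and Bmp7 changed sign, to 0.14 and 0.26. Wif1, a secreted WNT inhibitor, was placed on the 24-gene bulge list but stood with the germ genes here. It was detected in 11 of 29 cells with Postn, 32 of 39 cells without Postn and 1 of 39 bulge cells, with a difference of -3.23. The bulge list as a whole had a median of 0.83, with 10 genes (41.7%) at least 1 step higher, beside 3.58% of all genes, and Wif1 alone at least 1 step lower. That median was 0.30 without cells at the bulge Cd34 level and 0.093 without any cell that had Cd34 detected. It was 0.66 without the cell that carried fibroblast genes. Of 10 BMP inhibitors, 3 were at least 1 step higher, beside 3.58% of all genes: Fst (3.16), Grem1, which binds BMPs (1.95), and Sostdc1, an inhibitor of BMP and WNT (1.53). Fstl1 was lower (-1.30), but was 0.10 without any cell that had Cd34 detected. Id2, a target of BMP signals, had medians of 40.7 TPM in cells with Postn and 11.9 TPM in cells without Postn (1.75), while Msx2, another target, was lower (-1.67). The BMP response list of 10 had a median of 0.31.

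Receptors, matrix genes and epithelial genes were also listed, and their counts stand beside 3.58% of all genes higher and 7.24% lower. Among 31 receptors, 3 were at least 1 step higher, namely Tgfbr2, the ligand-binding TGF-beta receptor (1.97), and the WNT receptors Fzd1 (1.61) and Fzd3 (1.58), and 1, Ptch1, was lower. The TGF-beta response list of 10 had a median of 0.06, with Ltbp2 (2.69), Tgfbi, an integrin-binding matrix protein like periostin (2.10), and Ctgf, a matricellular protein (1.92), at least 1 step higher. Of 22 matrix protein genes other than Postn, 2 were at least 1 step higher and 6 at least 1 step lower. The higher ones were Ecm1 (1.52) and Tnc, tenascin C (1.08), and the lower ones included Fn1, fibronectin (-2.89), Mfap2, a microfibril protein (-2.33), Npnt, nephronectin (-2.00), and Bgn, biglycan (-1.85). Bgn was -1.62 and Fn1 -3.00 without the 1 cell that carried fibroblast genes, and Npnt changed sign, to 1.36, when every cell with Cd34 was left out. Integrin genes had 0 of 12 members past 1 step in either direction. Of 12 epithelial genes all were above 0, with a median of 0.84 and 4 at least 1 step higher, among them Dsg3, a desmosomal cadherin (2.51), and Krt5, a basal keratin (1.03). The outer root sheath list of 11 had a median of 1.10, with 7 genes at least 1 step higher and 1, Krt17, lower (-1.14). The values of these epithelial and outer root sheath lists include the 1 cell without Postn that carried fibroblast genes. In that cell none of the 12 epithelial genes was detected, and Krt5 and Krt14, members of both lists, were at 0 TPM. How far it raises these differences was not tested. A list of 8 steadily expressed genes had a median of -0.02 and none past 1 step.

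Among the lowest 12 genes were also Ly6e, a GPI-anchored surface protein (-3.30), Tspan18, a tetraspanin (-3.28), Slc7a2, a cationic amino acid transporter (-3.19), Nrp2, a receptor for semaphorins and VEGF (-3.12), Lamb1, a laminin chain (-2.82), Cldn10, a tight junction claudin (-2.78), Ccnd2, cyclin D2 (-2.73), and Glul, glutamine synthetase (-2.66). Tspan18 was detected in all 39 cells without Postn and in 17 of 29 cells with Postn. Its lowest and median TPM were 0 and 6.99 in cells with Postn and 3.87 and 95 in cells without Postn, so that the 12 cells in which it was not detected all carried Postn. Ordered by Spearman correlation with the level of Postn over the 68 germ cells, the nearest genes were Krt80 (0.71), Dmkn (0.69), S100a6, a calcium-binding protein (0.69), Thsd1 (0.66), Palld (0.66), Sbsn (0.65), Anxa8 (0.65) and Apoe, apolipoprotein E (0.64). Since Postn chose the cells and is at 0 in 39 of them, this order largely restates the split.

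The split was repeated in the germ plate of P23-P24 mice, which the choice of cells did not use, although the mean of all its cells had entered the choice of the bulge-selected genes. There, 37 cells carried Postn and 31 did not. Each of these cells had at least 10 of the 12 epithelial genes detected. The highest sum of 9 immune genes was 1030 TPM in cells with Postn and 6.91 TPM in cells without Postn. At most 6 and 1 of those genes were detected in a cell, in the same order. No cell was left out for this. Among 9734 genes, 3.09% were at least 1 step higher and 396 (4.07%) at least 1 step lower in cells with Postn, with a median of -0.08. The bulge-selected genes had a median of 1.02, with 92.8% above 0, 64 genes (51.2%) at least 1 step higher and 0 at least 1 step lower. With genes chosen against matrix cells alone, the median was 0.90 at P23-P24 and 0.89 at P21. A total of 47 genes were at least 1 step higher at both ages. They were 61.8% of the P21 genes past 1 step, while 51.2% of the whole set was that high at P23-P24. They were 73.4% of the P23-P24 genes past 1 step, while 60.8% of the whole set was that high at P21. With such shares in the whole set, a large overlap does not by itself show a relation between the ages. The differences at the 2 ages had a Pearson r of 0.51 over the set. Per cell, 43.2%, 62.4% and 88% of the set were detected in P23-P24 cells with Postn and 24.8%, 41.6% and 61.6% in those without Postn. Of these cells, 5 of the 37 and 0 of the 31 reached the lowest bulge cell. The set was chosen as higher in bulge cells than in the mean of this plate, which lowers these shares. They therefore cannot be set against those of P21.

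Single genes shifted in size between the ages. S100a4, a calcium-binding protein, differed by 1.45 at P21 and 3.61 at P23-P24, where its medians were 33 TPM in cells with Postn and 0 TPM in cells without Postn. Tgfbi differed by 2.10 at P21 and 3.66 at P23-P24, and Krt80 by 3.95 and 1.02. Germ genes were less divided at P23-P24: the hair germ list had a median of -0.48, with 5 of 17 genes (29.4%) at least 1 step lower and 1 (5.88%) at least 1 step higher. Among all genes at that age, 4.07% were lower and 3.09% higher by that much. Ccnd2 differed by -2.73 at P21 and -0.07 at P23-P24, and Axin2 by -1.02 and 1.02. Ly6e kept its size, with -3.30 at both ages. None of these differences between ages was tested.

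**Figure D5:**
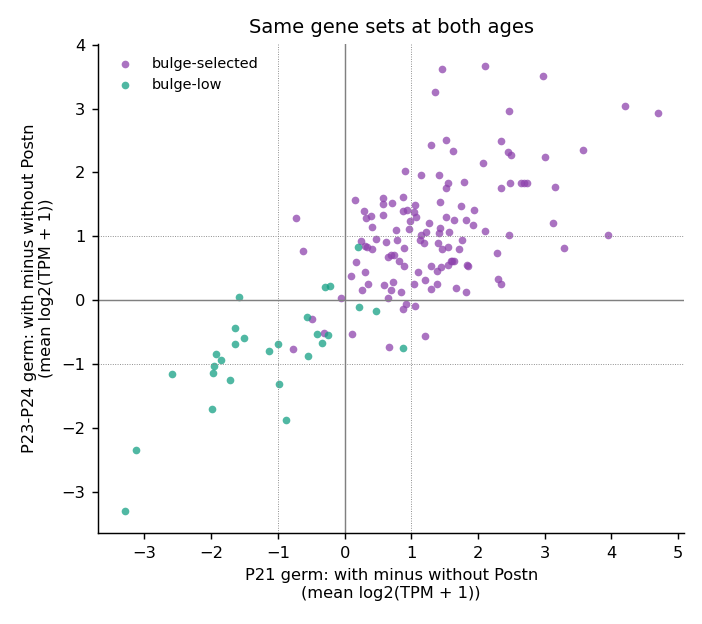
Each point is a gene, placed by its difference (germ cells with Postn minus germ cells without Postn, in mean log2(TPM + 1)) at P21 and at P23-P24, for the bulge-selected and the 28 reversed (bulge-low) genes. Dotted lines mark 1 step. Among the bulge-selected genes, 76 are at least 1 step higher at P21, 64 at P23-P24 and 47 at both ages.

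Genes of cell division differed between the groups at P23-P24, those of G2/M more than those of S phase. None of 18 G2/M genes passed the filter at P21, where no germ cell had more than 2 of them. At P23-P24 all 18 were below 0, with a median of -1.43 and 15 at least 1 step lower in cells with Postn, against 4.07% of all genes. A list of 16 S phase genes had a median of -0.59 at that age. Of these, 4 (25%) were at least 1 step lower and 0 at least 1 step higher. Ccnb2, a mitotic cyclin, was detected in 6 of 37 cells with Postn and 18 of 31 cells without Postn. Plk1, a mitotic kinase, was detected in 6 of 37 and 14 of 31 in the same order. At least 9 of the 18 genes were detected in 10 of 37 cells with Postn (27%) and 16 of 31 cells without Postn (51.6%), so cells with many of these genes were present in both groups. The median number of all detected genes was 6787 in cells with Postn and 7293 in cells without Postn, and its part in these shares was not tested.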

How the data were processed

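Values are the authors' deposited TPM, per the file headers, in a table of 46609 genes or other features. Per the submitters' processing notes, reads were handled with Bowtie2 2.2.9 and RSEM 1.2.30 on mm10. Every column summed to the same total within rounding, so read depth is unknown, and genes per cell and spike-in shares were used instead. A TPM of 0 can be a missed transcript. No count test was used, since TPM are not counts.

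Cells with at least 2000 genes at a TPM of 1 or more were kept. Each group is 1 sample, and all results are differences of mean log2(TPM + 1) with a pseudocount of 1, shares of cells with exact binomial (Clopper-Pearson) intervals at 95%, and lowest, median and highest TPM. Genes detected in at least 30% of the cells of either group were counted. Spike-in, ribosomal RNA and mitochondrial rows were left out. The code that computes these differences was checked on simulated cells, and no difference between the groups was tested. The genes named are the 12 with the largest difference each way, up to 4 per list, the 8 highest and 4 lowest bulge-selected genes, and the 8 nearest to Postn by rank correlation; others were named after their values were seen. Not all genes taken by the rule are named. Members and gene lists were chosen with earlier results of these data known. Promoters are from RefSeq, GRCm38.p6, with 94 bulge-selected genes matched by symbol. Gene positions are from GENCODE M21. Python 3.11.15, NumPy 2.4.6, pandas 2.3.3 and SciPy 1.17.1 were used. Alternatives covered the pseudocount, the filter, the Postn and gene thresholds, rescaling, and leaving out cells by Cd34, fibroblast genes, plate row or genes per cell. Rescaling brought each cell to the same total without its spike-in, ribosomal RNA and mitochondrial rows. The P30 dermal papilla cells were not analysed here.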

Additional observations from a re-analysis of the deposited data

How the results depend on the processing

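No paired analysis was possible because each group is 1 sample and no test was run. The share of germ cells with Postn stayed inside its interval (39.7% to 42.6%), and the medians of bulge-selected genes per cell moved by less than 1.5 times with a TPM of 10 as the limit. The bulge-selected, bulge list and hair germ medians kept their signs in every setting tried. The number of genes at least 1 step higher and lower was 50 and 53 with a pseudocount of 10, 938 and 1871 with 0.1, 650 and 1232 after rescaling, and 837 and 1032 in cells between the 25th and 75th percentile of genes per cell. It was 1973 higher without cells with Cd34, where the median of all genes was 0.25. The number lower was 419 with no minimum of genes and 1032 without cells with a fibroblast gene. The bulge-selected median was 0.65 with a pseudocount of 10, 0.48 without cells with Cd34 and 0.58 without cells at the bulge Cd34 level, with 25.6%, 29.6% and 28% of genes at least 1 step higher, and 94.7% for genes at least 3 steps higher in bulge cells. The bulge list median was 0.093 and 0.30 in the 2 Cd34 settings and 0.51 between those percentiles. The hair germ median was -0.88 with a pseudocount of 10, -0.71 between the percentiles, -0.96 for the ratio of mean TPM, and -0.17 and -0.80 in the 2 Cd34 settings. At P23-P24, a pseudocount of 10 gave 0.46 for the bulge-selected and -0.70 for the G2/M genes.

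Signs turned for 10 values of the 71 named genes past 1 step. Without cells with Cd34 these were Bmp7 (0.26), Timp3 (0.92), Cxcl14 (-0.35), Fstl1 (0.10), Wnt10b (0.14), Mcm7 (1.24), Npnt (1.36) and Hspa1a (0.63), on 6 and 21 cells. Between the percentiles they were Cyr61 (-0.39) and Egr1 (-0.44). The cause was not tested. Leaving out row A, the cell with fibroblast genes or cells at the bulge Cd34 level, the choice against matrix cells alone at P23-P24, and the G2/M values were added after seeing the data. With no read depth, a cell without a transcript cannot be told from one in which it was missed.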

Other observations

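Chat, the gene of choline acetyltransferase and a bulge-selected gene, was detected in 8 of 29 germ cells with Postn (27.6%), 0 of 39 germ cells without Postn (upper bound 9.03%) and 34 of 39 bulge cells. It was chosen after its values were seen. Defb6, a defensin of the upper follicle, was listed at 0 in all cells without Postn and in all bulge cells, and was detected in 2 of 29 cells with Postn, with a highest value of 3352 TPM. Krt1, a keratin of differentiated epidermis, was detected in 3 of 29 cells with Postn, 0 of 39 cells without Postn and 0 of 39 bulge cells. Lhx2, a transcription factor on the bulge list, had medians of 17.4 TPM in cells with Postn, 27.8 TPM in cells without Postn and 36.2 TPM in bulge cells.

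Dusp1, an immediate early phosphatase, was higher in cells with Postn at both ages, by 1.71 at P21 and 1.58 at P23-P24. Egr1, another immediate early gene, differed by 1.15 at P21 and -0.11 at P23-P24. The list of 14 immediate early and stress genes had a median of 0.50 at P21, with 2 (14.3%) at least 1 step higher and 1 (7.14%) lower. The shares of all genes were 3.58% and 7.24%, so the share lower was near that of all genes.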
